A study of Rattus norvegicus with 40 samples.

Results

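Of the 32545 genes in the deposited tables, 5 are described here: 4 genes of steroid production in the adrenal cortex, Scarb1 (ENSRNOG00000000981), Star (ENSRNOG00000015052), Cyp21a1 (ENSRNOG00000000428) and Por (ENSRNOG00000001442), and the abundant gene ENSRNOG00000008074. They were taken by Ensembl identifier from a list made with earlier results of these data known, on which ENSRNOG00000008074 was chosen by its abundance, as the only nuclear gene beside Cyp21a1 among the 10 most abundant. ENSRNOG00000008074 held the ninth place by reads, with 1.02% of reads, where the gene at the tenth place held 0.866%, and place 12 by mean FPKM. Abundance is therefore given as a description and was not tested. The deposited tables carry no gene symbols. The 4 symbols come from the list, and ENSRNOG00000008074 is given by its identifier alone, with no name or role.

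Adrenal glands came from adult Sprague Dawley rats, an outbred laboratory stock, of both sexes. Animals were controls or were dosed with a mixture of organophosphate esters, industrial flame retardants and plasticizers, at 30x, 1000x or 30000x; the labels do not say what amount 1 multiple stands for, how long exposure lasted or what the controls received. Each of the 8 groups (4 in males, 4 in females) held 5 libraries labelled as biological replicates, 40 in all, and the labels name no genetic change and no second treatment. The labels name no individual animals, so the p-values measure the spread between libraries, each made from adrenal gland tissue. In such bulk tissue, fewer cortical cells and less RNA per cortical cell cannot be told apart.

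Steroid hormones are built from cholesterol. Adrenal cortical cells take up much of their cholesterol from high-density lipoprotein through the receptor encoded by Scarb1, and the Star protein moves it to the inner mitochondrial membrane, where the first enzyme of the pathway sits. Cyp21a1 encodes steroid 21-hydroxylase, a cytochrome P450 of the endoplasmic reticulum needed for both corticosterone, the main glucocorticoid of the rat, and aldosterone. Por encodes cytochrome P450 oxidoreductase, which hands electrons to Cyp21a1 and to the other P450s of the endoplasmic reticulum in most tissues, so it is not confined to the cortex.

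Promoters are shown for the enzyme Cyp21a1 and its electron donor Por, the 2 of the 4 named genes that had a promoter entry. Both run 5′ to 3′ on the coding strand from 250 bases before to 50 bases after the annotated start, from RefSeq on build GRCr8. Cyp21a1 lies at chr20:4028141-4028440 on the plus strand and Por at chr12:26635760-26636059 on the minus strand. Capitals mark the motifs found.
Cyp21a1 promoter: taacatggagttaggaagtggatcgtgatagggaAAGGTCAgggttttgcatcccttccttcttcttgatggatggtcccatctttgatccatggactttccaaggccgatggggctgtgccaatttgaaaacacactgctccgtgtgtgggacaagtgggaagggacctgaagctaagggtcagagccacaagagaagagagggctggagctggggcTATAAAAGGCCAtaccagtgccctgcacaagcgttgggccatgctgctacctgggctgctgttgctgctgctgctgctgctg
Por promoter: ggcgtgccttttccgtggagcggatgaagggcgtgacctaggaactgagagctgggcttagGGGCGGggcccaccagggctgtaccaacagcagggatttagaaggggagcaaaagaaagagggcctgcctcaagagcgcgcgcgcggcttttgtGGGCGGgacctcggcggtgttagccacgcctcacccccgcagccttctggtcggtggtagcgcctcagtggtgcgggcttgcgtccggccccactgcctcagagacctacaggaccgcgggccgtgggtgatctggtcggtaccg
The motifs searched on both strands were AAGGNCA (the core binding motif of SF-1, a transcription factor of steroid-producing cells), GGGCGG (the GC box), TATAAA (the TATA box) and TGACGNNN (part of a cyclic AMP response element). In the Cyp21a1 window AAGGNCA stood at positions -216 to -210 and -27 to -21, counted from the start, and TATAAA at -32 to -27, where it shares 1 base with the second AAGGNCA. The Por window held GGGCGG at -189 to -184 and at -95 to -90. TGACGNNN was in neither window. Of 33469 RefSeq promoters of the same 300 bases, 20.3% held AAGGNCA, 14.2% TATAAA, 33.1% GGGCGG and 21.1% TGACGNNN. These matches are letters in a window and say nothing of binding in these glands.

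The values are FPKM (fragments per kilobase of gene length, scaled for library depth), so levels can be compared between genes. Whole reads could be recovered from them, and the libraries held 13527205 to 23838651 reads (median 17528215). The library scale in the deposited FPKM equals a median-of-ratios size factor and not the read total, and the FPKM of a library sum to between 499471 and 1052740. The 7 genes with more reads than Cyp21a1, together with the 1 gene at the tenth place, took a median of 15.7% to 18.3% of reads in the male groups and 24.7% to 28.2% in the female groups. Another library scale therefore moves female against male values, and results that change with it are given with that change.

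Cyp21a1 was the most abundant of the 5 genes, with 5868 ± 1196 FPKM (SD, n = 40) and 1.35% of all reads. ENSRNOG00000008074 followed with 5192 ± 1152 FPKM and 1.02% of reads, and Star with 4596 ± 1301 FPKM and 0.529% of reads. Scarb1 had 1368 ± 633 FPKM and Por 116 ± 30.1 FPKM. By mean FPKM they stood at places 10, 12, 15, 25 and 591 among all genes. Counting error was small throughout: the lowest read number of any member was 3072 reads for Por, a Poisson error of 1.80%. The order was not the same in every library. Cyp21a1 was above ENSRNOG00000008074 in 18 of 20 male and 15 of 20 female libraries. ENSRNOG00000008074 was above Star in 17 of 20 female but 8 of 20 male libraries, where the means were 4814 and 4789 FPKM, so in males these neighbours did not differ beyond their spread. Star was above Scarb1, and Scarb1 above Por, in all 20 libraries of each sex.

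The spread within groups also differed between the 5 genes. Scarb1 ran from 352 to 3063 FPKM, an 8.71-fold range, and its SD within groups was 0.66 on the log2 scale, larger than that of 95.3% of the 8751 genes whose mean reached 5 FPKM. Star had a within-group SD of 0.41, larger than that of 86.3% of those genes. Cyp21a1 (0.29), ENSRNOG00000008074 (0.28) and Por (0.25) lay closer to the middle, above 68.7%, 67.4% and 56.6% of genes. Scarb1 had the largest SD of the 5 in each of the 8 groups. Star did not exceed Cyp21a1 and Por everywhere: in male controls its log2 SD was 0.11 against 0.29 and 0.22, and in males at 30000x 0.14 against 0.17 and 0.22.

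**Figure D1:**
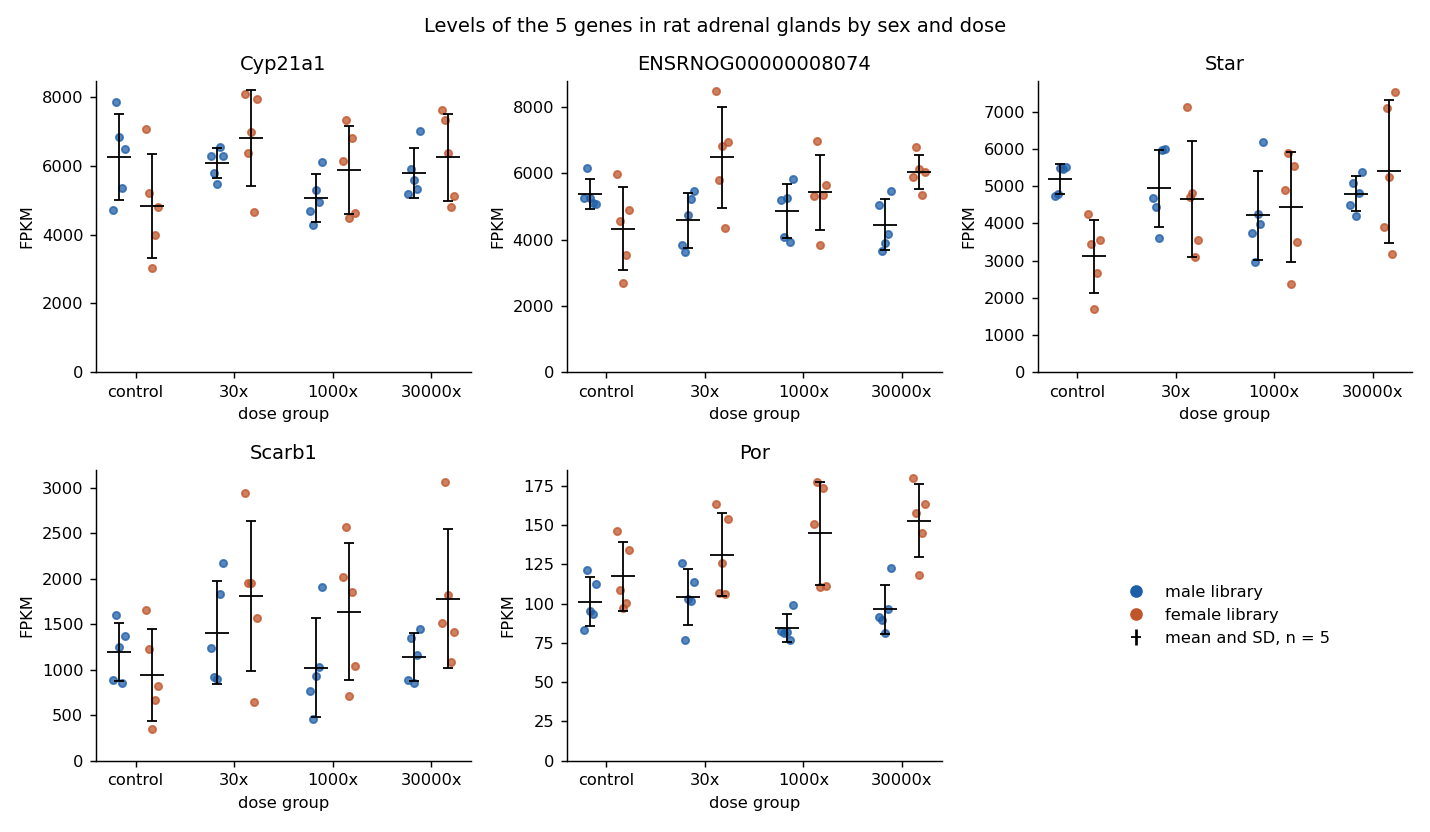
FPKM of the 5 genes in each of the 40 libraries on a linear axis, 1 panel per gene. Points are libraries, and bars are group means with their SD. Male and female groups run from control to 30000x. Female controls have the lowest group mean for Star, with libraries between 1690 and 4243 FPKM. The female 1000x libraries of Por, from 110 FPKM upwards, lie above all male 1000x libraries.

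Whether the mixture changed these genes was asked in each sex by setting each dose against the 5 controls of that sex, which the 3 doses share. In females all 15 values (5 genes at 3 doses) lay above 0, from 0.16 to 1.01 on the log2(FPKM + 1) scale, and none passed limma with Benjamini-Hochberg adjustment over all genes. In males 13 of 15 values lay below 0, from -0.34 to 0.19, and again none passed. All changes in this paragraph and the next ones are differences of log2(FPKM + 1). The background was 0% of 13251 genes called at every dose in females and 0.00763% of 13110 genes called at each dose in males, so the absence of calls was general. At an unadjusted p under 0.05 there were 7 of the 15 female values (3 at 30x, 0 at 1000x and 4 at 30000x), where 7.95%, 1.67% and 9.88% of all genes were. There were 0 of the 15 male values, where 9.52%, 7.22% and 5.88% of all genes were, and the lowest adjusted p by limma with Benjamini-Hochberg was 0.48 in females and 0.61 in males. Limma's voom on the recovered reads also called none, with 7 female and 2 male values at an unadjusted p under 0.05.

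Scarb1, the cholesterol uptake receptor, had the largest female values. Its female controls measured 352, 665, 823, 1223 and 1659 FPKM. The 30x females measured 650, 1566, 1954, 1956 and 2941, the 1000x females 716, 1041, 1851, 2021 and 2571, and the 30000x females 1088, 1410, 1512, 1826 and 3063 FPKM. Between 2 and 3 of the 5 libraries of each dosed group were above the highest control, and the ranges overlapped. The log2 changes were 0.97 at the lowest dose (SE 0.44, 95% interval 0.05 to 1.89), 0.84 at 1000x (SE 0.44, -0.08 to 1.76) and 1.01 at the highest (SE 0.44, 0.09 to 1.93). Male controls measured 859, 891, 1248, 1373 and 1601 FPKM. Male 30x libraries measured 895, 917, 1236, 1828 and 2169, the 1000x libraries 457, 770, 932, 1034 and 1913, and the 30000x libraries 860, 886, 1167, 1350 and 1448 FPKM. In males the libraries of every dosed group spread on both sides of the control mean of 1195 FPKM.

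Star, the carrier of cholesterol into mitochondria, measured 1690, 2655, 3439, 3555 and 4243 FPKM in female controls. Females at 30x measured 3088, 3544, 4700, 4813 and 7126, those at 1000x 2376, 3503, 4911, 5541 and 5882, and those at 30000x 3178, 3908, 5250, 7110 and 7536 FPKM. At each dose 3 of 5 libraries were above the highest control and the others were within the control range. The log2 changes were 0.58 (SE 0.31), 0.50 (SE 0.31) and 0.78 (SE 0.31, 95% interval 0.13 to 1.43) from the lowest dose to the highest. Male controls of Star were tight, at 4726, 4777, 5462, 5479 and 5522 FPKM. Males measured 3616, 4438, 4690, 5967 and 5989 FPKM at 30x, 2957, 3751, 3979, 4243 and 6186 at 1000x, and 4201, 4491, 4830, 5097 and 5385 at 30000x. The dosed males thus reached below the control range at every dose, with an SD of 404 FPKM in the controls against 470 to 1198 FPKM in the dosed groups, a difference in spread that was not tested.

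Cyp21a1, the 21-hydroxylase, measured 3032, 3986, 4797, 5221 and 7077 FPKM in female controls. It measured 4668, 6366, 6995, 7942 and 8091 at 30x, 4469, 4611, 6139, 6804 and 7332 at 1000x, and 4796, 5118, 6358, 7320 and 7622 FPKM at 30000x. The groups overlapped, and 1 control library stood above most of the dosed ones. The log2 changes were 0.53 (SE 0.23), 0.31 (SE 0.23) and 0.40 (SE 0.23). In males it measured 4712, 5341, 6500, 6837 and 7860 FPKM in controls, 5483 to 6554 (median 6294) at 30x, 4287 to 6113 (median 4939) at 1000x and 5170 to 7001 (median 5590) at 30000x. All 5 males at 1000x were below the control mean of 6250 FPKM, with a change of -0.29 that did not pass the test. The other changes at male 1000x were -0.34 for Star and for Scarb1, -0.25 for Por and -0.16 for ENSRNOG00000008074, and none passed.

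ENSRNOG00000008074 measured 2697, 3538, 4565, 4884 and 5980 FPKM in female controls. The dosed females ran from 4342 to 8496 (median 6820) at 30x, 3824 to 6975 (median 5342) at 1000x and 5353 to 6785 (median 6051) at 30000x. All 5 females at 30x and all 5 at 30000x were above the control mean of 4333 FPKM. The log2 changes were 0.60 (SE 0.22, 95% interval 0.15 to 1.05), 0.35 (SE 0.22) and 0.53 (SE 0.22, 0.08 to 0.98). In male controls it measured 5086, 5119, 5247, 5249 and 6154 FPKM, and the dosed males ran from 3618 to 5474 at 30x, 3934 to 5821 at 1000x and 3647 to 5473 at 30000x. At each male dose 1 of the 5 libraries exceeded the control mean of 5371 FPKM. The same held in the male controls, where only the library at 6154 FPKM lay above that mean.

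Por, the electron donor, measured 96.9, 101, 108, 134 and 146 FPKM in female controls. Dosed females measured 106, 107, 125, 154 and 163 at 30x, 110, 111, 151, 173 and 177 at 1000x, and 118, 145, 157, 164 and 180 FPKM at 30000x. The ranges overlapped at every dose. The log2 changes were 0.16 (SE 0.17), 0.29 (SE 0.17) and 0.38 (SE 0.17, 95% interval 0.03 to 0.74). Male Por measured 83.0, 93.6, 95.4, 112 and 122 FPKM in controls. Dosed males measured 76.99, 101.6, 103, 114 and 126 at 30x, 76.98, 81.2, 82.0, 82.5 and 99.4 at 1000x, and 81.5, 89.6, 91.3, 96.7 and 123 FPKM at 30000x. All 5 males at 1000x were below the control mean of 101.2 FPKM.

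With the 3 doses pooled against the controls, the female values were 0.94 for Scarb1 (SE 0.36, 95% interval 0.19 to 1.69), 0.62 for Star (SE 0.26, 0.09 to 1.16), 0.49 for ENSRNOG00000008074 (SE 0.18, 0.12 to 0.86), 0.41 for Cyp21a1 (SE 0.19, 0.02 to 0.81) and 0.28 for Por (SE 0.14, -0.01 to 0.57). Their adjusted p by limma with Benjamini-Hochberg was 0.66 to 0.67, and 0% of genes were called. Pooled male values ran from -0.23 to -0.07, with no member called beside 0.00763% of 13110 genes. A straight line over the dose rank gave a female slope per dose step of 0.10 for Cyp21a1, 0.13 for ENSRNOG00000008074, 0.23 for Star, 0.29 for Scarb1 and 0.13 for Por (adjusted p by limma 0.74 to 0.78), and male slopes of -0.08 to -0.05. Neither sex had a member called for this trend, where 0% of 13251 genes were called in females and 0.00763% of 13110 in males.

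The size of the female values rested on a few control libraries and on the scale. Female control replicate 3 had the lowest value of all 20 female libraries in every one of the 5 genes. Without it the pooled Scarb1 value was 0.63 and that of Star 0.42, and 1 of the 15 single-dose values in place of 7 had an unadjusted p under 0.05. Without female control replicate 4 it was 2, and without female control replicate 1, the highest control in all 5 genes, it was 12 and the pooled Scarb1 value was 1.19. With quantile normalization 12 of the 15 female values lay above 0, their median was 0.15 in place of 0.53, and 1 had an unadjusted p under 0.05. The pooled values were then 0.04 for Cyp21a1, 0.10 for ENSRNOG00000008074, 0.18 for Star, 0.14 for Por and 0.63 for Scarb1. With scaling to library totals 14 lay above 0 (median 0.25) and 1 had an unadjusted p under 0.05, and with scaling to total reads it was 14 (median 0.32) and 2. In males 8 of 15 values, in place of 13, were below 0 with quantile normalization or scaling to library totals. Library totals moved the median of all genes in males by 0.03, 0.10 and 0.10 (log2) in dose order. Scaling to library totals moved the median of all genes by -0.21 (log2) in the pooled female comparison, and relative to that median the pooled values were 0.24 for Por to 0.90 for Scarb1.

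**Figure D2:**
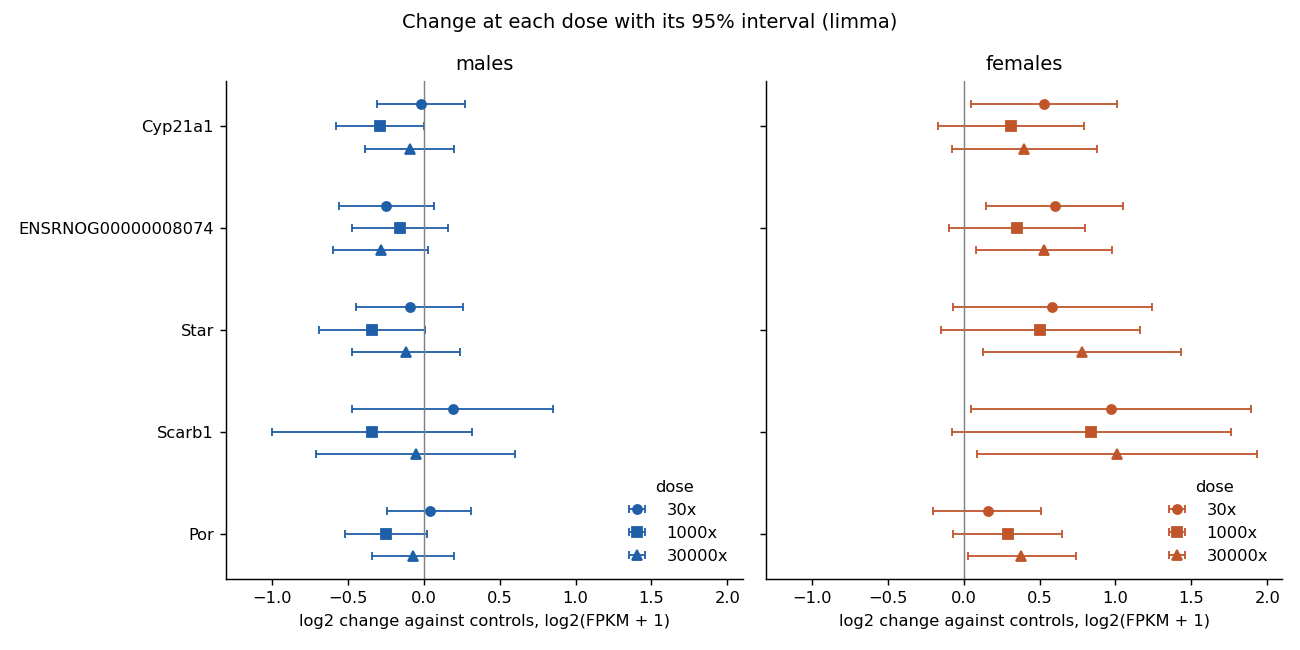
Log2 change against the controls of the same sex for each gene at 30x, 1000x and 30000x, with bars for the 95% interval from limma; the 3 doses of a sex share their controls. Female values lie between 0.16 and 1.01 and male values between -0.34 and 0.19, and no value passed the adjusted threshold.

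Whether the sexes responded differently was tested as the female change minus the male change. All 15 differences lay above 0, from 0.12 to 1.18, and 9 had an unadjusted p under 0.05 (2 at 30x, 4 at 1000x and 3 at 30000x), where 13.1%, 4.67% and 12.8% of all genes did. With quantile normalization 12 lay above 0 (-0.16 to 0.92) and 3 had such a p, with scaling to library totals it was 14 and 2, and with scaling to total reads 14 and 4. Library totals moved the median of all genes by -0.31, -0.20 and -0.32 (log2) in dose order, and total reads by -0.24, -0.16 and -0.25. Relative to these medians the 15 differences ran from 0.05 (Por at 30x) to 1.13 (Scarb1 at 1000x) with library totals. With total reads they ran from 0.07 to 1.14 for the same 2 genes and doses. On the deposited scale the lowest adjusted p by limma with Benjamini-Hochberg was 0.23, no member was called, and 0% of 13926 genes were called at any dose. For Star the difference at 30000x was 0.90 (SE 0.36, 95% interval 0.16 to 1.63), and for Scarb1 at 1000x it was 1.18 (SE 0.56, 0.04 to 2.32). For ENSRNOG00000008074 the differences in dose order were 0.84, 0.51 and 0.81, each with an SE of 0.26. The same 10 control libraries enter all 15 differences. Without female control replicate 1 the lowest adjusted p was 0.058 and 13 differences had an unadjusted p under 0.05, and without female control replicate 3 there were 3.

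Females and males were next compared within each dose group. On the deposited scale Por was higher in females at 1000x, at 30000x and over the mean of the 4 dose groups. No other member was called in any of these comparisons on that scale. At 1000x the 5 female values, 110 FPKM and above, all exceeded the highest male value of 99.4 FPKM, and the means were 145 ± 32.5 FPKM in females and 84.4 ± 8.65 FPKM in males (SD, n = 5 each). Its log2 difference there was 0.74 (SE 0.15, 95% interval 0.43 to 1.06), adjusted p 0.0085 by limma with Benjamini-Hochberg, where 1.26% of genes were called and 0.682% were called higher in females. At 30000x the means were 153 ± 23.04 and 96.3 ± 15.7 FPKM, and 4 of 5 females were above the highest male. The difference was 0.66 (SE 0.15, 0.35 to 0.97), adjusted p 0.0095 by limma, where 6.89% of genes were called and 2.67% were called higher in females. In controls Por differed by 0.20 (SE 0.15, -0.11 to 0.52), where 5.23% of genes were called and 1.98% were called higher in females. The 30x difference was 0.32 (SE 0.15, 0.01 to 0.64), where 3.67% were called and 1.85% higher in females, and neither passed.

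Over the mean of the 4 dose groups Por was 1.40-fold higher in females, a log2 difference of 0.48 (SE 0.08, 95% interval 0.33 to 0.64) with an adjusted p of 1.6e-05 by limma. The sex means were 136 and 96.5 FPKM over 20 libraries each. In that comparison 1 of 5 members was called where 29.5% of all genes were called, and 13.9% of all genes were called higher in females, so a call was common. The Por difference at 30000x lost its call with scaling to library totals (0.21) and with the compared groups fitted alone (0.66, adjusted p 0.058 by limma), whereas that at 1000x kept it in all 10 alternatives, with values of 0.43 to 0.78. Scaling to library totals moved the median of all genes by -0.38 (log2) at 30000x, and Por lay 0.59 above that median. There 5831 of 14050 genes were called, and 1.37% of those were higher in females. In the mean over the 4 groups this scaling moved the median by -0.26 (log2). The Por difference was 0.17 there and thus 0.43 above that median.

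Star went the other way in controls. The 5 female controls, 1690 to 4243 FPKM, all lay below the 5 male controls, 4726 to 5522 FPKM, and the means were 3116 ± 976 and 5193 ± 404 FPKM (SD, n = 5 each). This log2 difference was -0.80 (SE 0.26, 95% interval -1.32 to -0.28) with an adjusted p of 0.058 by limma with Benjamini-Hochberg, so it missed the threshold, and 0 of 5 members were called in controls beside 5.23% of genes. It passed in 6 of 10 alternatives, with adjusted p of 0.0044 to 0.14 by limma over all of them, and when female control replicate 1 was left out (-0.93, adjusted p 0.035). In the dosed groups the Star difference on the deposited scale was -0.12, 0.04 and 0.10 in dose order, each with an SE of 0.26. With quantile normalization it was -0.62, -0.38 and -0.19, and was called at 30x (adjusted p 0.018 by limma). With scaling to library totals it was -0.57, -0.28 and -0.35, and was called at 30x (adjusted p 0.031 by limma). Relative to the median of all genes under library totals it was -0.21, -0.02 and 0.02. The other control differences were -0.41 (SE 0.19) for Cyp21a1, -0.36 (SE 0.18) for ENSRNOG00000008074 and -0.48 (SE 0.40) for Scarb1, and none passed.

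Averaged over the 4 groups, the differences of the other members were 0.00 (SE 0.09) for Cyp21a1, 0.18 (SE 0.09) for ENSRNOG00000008074, -0.20 (SE 0.13) for Star and 0.27 (SE 0.20) for Scarb1, with none called. With quantile normalization Cyp21a1 (-0.30) and Star (-0.47) were called lower in females, where 4306 of 13926 genes were called, and ENSRNOG00000008074 changed sign (-0.05). With scaling to library totals Cyp21a1 (-0.32) and Star (-0.52) were called lower, where 8511 of 14050 genes were called and 3.69% of those were higher in females. Relative to the median of all genes under that scale, Cyp21a1 was at -0.06 and Star at -0.26. ENSRNOG00000008074 (-0.14) and Scarb1 (-0.05) also lay below 0 there, but at 0.12 and 0.21 above that median. With scaling to total reads Star (-0.36, or -0.23 relative to the median of -0.13) was called, where 5456 of 14004 genes were called and 11% of those were higher in females. Without female control replicate 3 the difference of ENSRNOG00000008074 (0.22) was called.

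**Figure D3:**
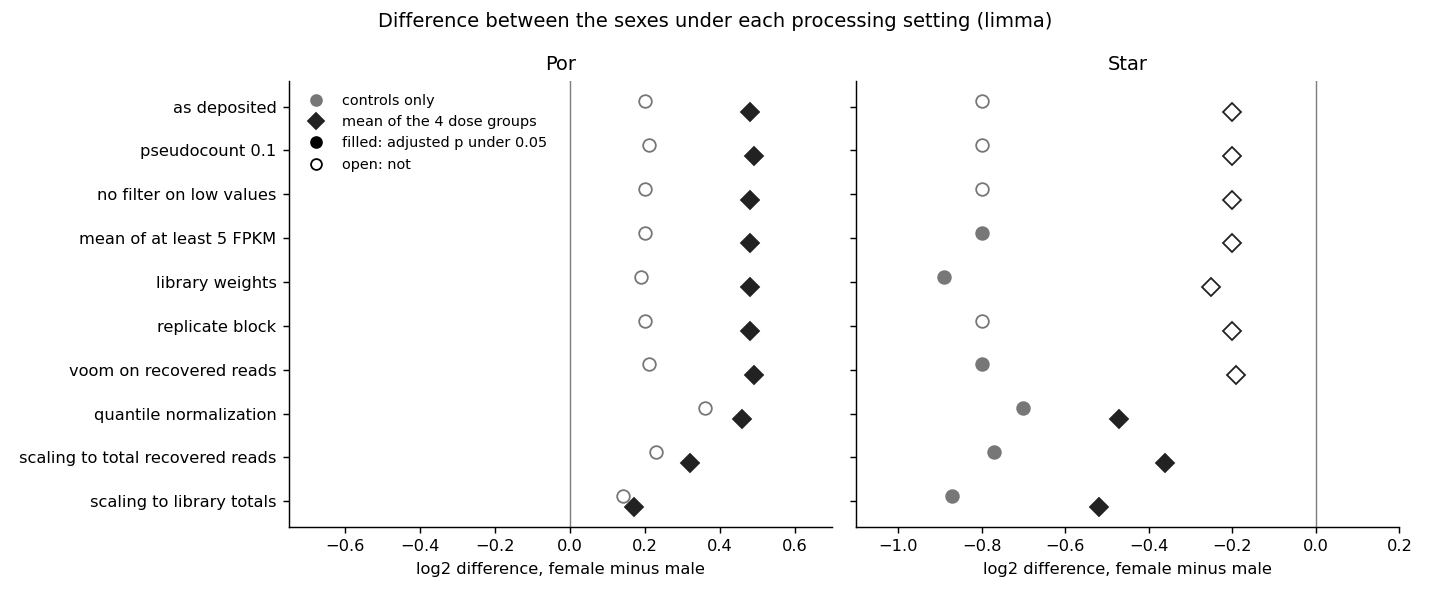
Female minus male log2 difference of Por (left) and Star (right) under each processing setting, with circles for controls only and diamonds for the mean of the 4 dose groups; filled symbols have an adjusted p under 0.05 by limma. Por is filled under all 10 settings for the mean of the 4 groups, and Star in controls lies between -0.89 and -0.70 and is filled under 6 of the 10 settings.

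The 5 genes varied together from library to library. Pearson's r of log2(FPKM + 1) and Spearman's rho were computed within each sex over 20 libraries for the 10 pairs, 20 relations in all, with a permutation test of 100000 resamples and Benjamini-Hochberg adjustment. In females all 10 relations passed, with r of 0.69 to 0.91, and in males 6 of 10 passed. The share of other gene pairs that would pass was not computed. The strongest female pairs were Cyp21a1 with Scarb1 (r 0.91, rho 0.82), Star with Scarb1 (r 0.90, rho 0.85) and ENSRNOG00000008074 with Scarb1 (r 0.90, rho 0.78), each with an adjusted permutation p of 4e-05, which comes from the smallest p these resamples can give. By r, Scarb1 was the closest partner of Cyp21a1, Star and ENSRNOG00000008074, but Cyp21a1 with ENSRNOG00000008074 was close behind (r 0.89) and by rho (0.85) they were closest to each other, and these differences were not tested. Por had r of 0.69 to 0.73 to the others in females and rho of 0.63 to 0.74. The lowest female pair without Por, Cyp21a1 with Star, had r 0.75 and rho 0.69, so Por was not set apart by rho. Without the 2 libraries farthest from the median of the first gene, r stayed at 0.56 or above in every female pair.

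In males Star with Scarb1 was strongest (r 0.86, rho 0.77, adjusted permutation p 6.7e-05), followed by Cyp21a1 with Scarb1 (r 0.79, rho 0.79, adjusted permutation p 0.0002) and Cyp21a1 with Por (r 0.76, rho 0.73, adjusted permutation p 0.00032). Cyp21a1 with Star had r 0.68 (rho 0.66, adjusted permutation p 0.0016), Scarb1 with Por r 0.65 (rho 0.65, adjusted permutation p 0.00224) and Star with Por r 0.52 (rho 0.57, adjusted permutation p 0.0247). The 4 male pairs that missed were those of ENSRNOG00000008074, with r of 0.37 to Cyp21a1, 0.44 to Star, 0.41 to Scarb1 and 0.43 to Por and adjusted permutation p of 0.0653 to 0.11. By rho, 3 of these 4 passed (adjusted permutation p 0.0302, 0.0413 and 0.0494), while the pair with Cyp21a1 did not (rho 0.35, adjusted permutation p 0.136). In females that same pair had r 0.89 and rho 0.85. The difference of r between the sexes was not tested. Without the 2 libraries farthest from the median Cyp21a1 level, the male r of this pair was 0.15 and the female r 0.80.

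**Figure D4:**
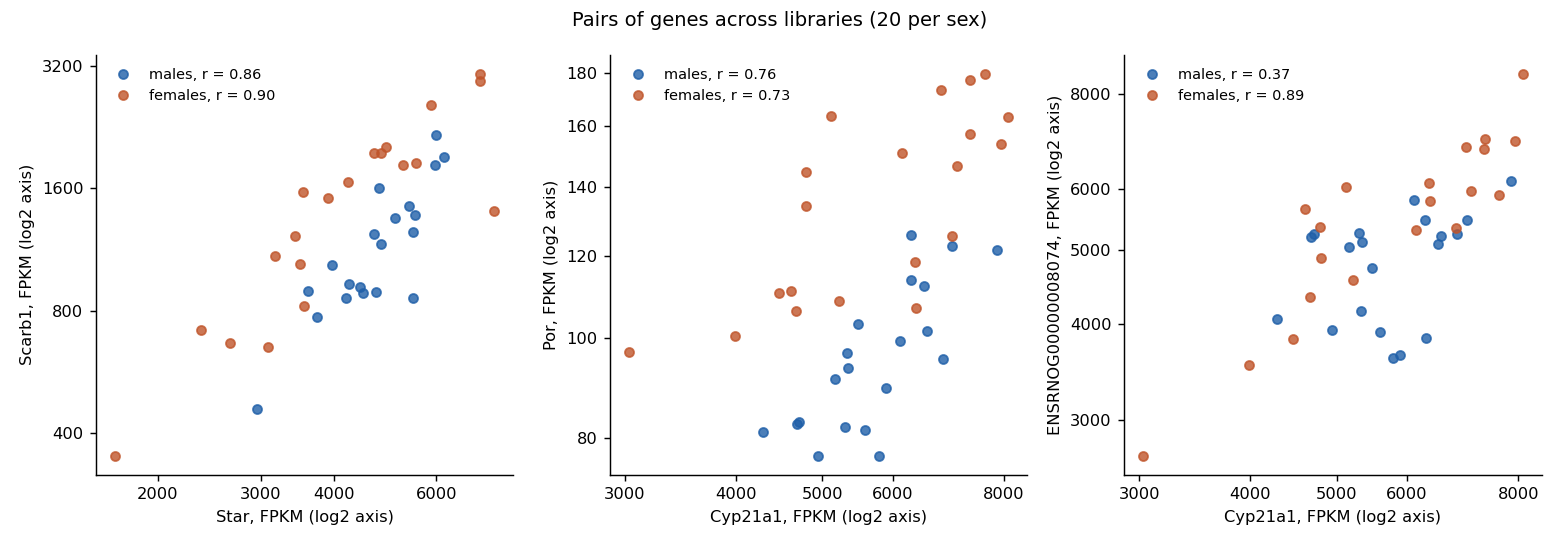
FPKM of 3 pairs of genes in 20 male and 20 female libraries on log2 axes, each point 1 library. Scarb1 follows Star in both sexes (r 0.86 and 0.90), Por follows Cyp21a1 at a higher level in females, and ENSRNOG00000008074 is plotted against Cyp21a1 with r 0.89 in females and 0.37 in males, a difference that was not tested.

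After the mean of each dose group was subtracted, 8 of 10 male and 10 of 10 female relations passed. In males ENSRNOG00000008074 then passed with Cyp21a1 (r 0.44, adjusted permutation p 0.0366), Scarb1 (r 0.54, adjusted permutation p 0.0401) and Por (r 0.55, adjusted permutation p 0.0247). Its relation with Star (r 0.48, adjusted permutation p 0.0836) did not pass, and Star with Por no longer did (r 0.39, adjusted permutation p 0.0875). With scaling to library totals or to total reads, 5 male and 7 female relations passed, and the female relations lost were those of Por with Star, Scarb1 and ENSRNOG00000008074. In females the share of reads in the 8 other most abundant genes moved with Star (r 0.68, adjusted permutation p 0.018; rho 0.57, adjusted permutation p 0.102; r 0.52 without the 2 farthest libraries) and with ENSRNOG00000008074 (r 0.65, adjusted permutation p 0.0236; rho 0.57, adjusted permutation p 0.102). Its part in the relations between genes was not tested. No member was related to the number of reads in either sex, with r of -0.30 to 0.34 and adjusted permutation p of 0.469 or more.

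Among the 8751 genes whose mean reached 5 FPKM, those most like each member after subtraction of the group means were found over the 40 libraries, as a description. For Scarb1 they were ENSRNOG00000000700 (r 0.94) and ENSRNOG00000012123 (r 0.92), and for Star ENSRNOG00000002520 and ENSRNOG00000040287 (r 0.91 each). For Cyp21a1 they were ENSRNOG00000012123 (r 0.87) and Scarb1 itself (r 0.86). ENSRNOG00000008074 was closest to ENSRNOG00000050585 (r 0.89) and ENSRNOG00000047115 (r 0.87), and Por to ENSRNOG00000020941 and ENSRNOG00000042884 (r 0.79 each). The median r over all those genes was 0.03 to 0.07. ENSRNOG00000012123 was thus shared between the Cyp21a1 and Scarb1 neighbourhoods, and Scarb1 was the only member among the first 2 places of another member. The closest other member stood at place 2 for Cyp21a1, 43 for ENSRNOG00000008074, 12 for Star, 9 for Scarb1 and 14 for Por. The farthest stood at places 111, 272, 632, 208 and 444 in the same order. Many genes outside the 5 thus followed a member more closely than another member did.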

How the data were processed

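RNA was sequenced from rat adrenal glands in 40 libraries. The authors deposited 1 FPKM value per gene and library. The submitters' processing notes name the aligner HISAT2 (2.0.5) and the counter featureCounts (1.5.0-p3). The sources used here do not give the genome build, annotation or strand setting. Gene lengths and whole reads were recovered from the deposited FPKM: 100.0% of 680244 values in 20717 genes were within 0.05 read of a whole number, and the library scales equal median-of-ratios size factors. No 2 libraries of a group agreed within sampling noise (80 pairs).

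Groups follow the sample titles. Genes that reached 1 FPKM in 5 or more libraries of the comparison were tested on log2(FPKM + 1), which understates changes of low genes, with limma 3.58.1 (R 4.3.3; trended prior, two-sided), Benjamini-Hochberg adjustment over all genes tested and a threshold of 0.05. Dose comparisons used the 20 libraries of a sex, and comparisons between the sexes all 40. Correlations used Python 3.11.15 and scipy 1.17.1, two-sided. The procedures were tested on simulated data. Alternatives were another pseudocount, filters, scales, library weights, a replicate block, voom on the recovered reads and leaving out each library; scaling to total recovered reads was chosen after seeing the data.

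The members and lists were chosen with earlier results of these data known. The genes named are the 5 members and, for each, the 2 genes with the highest correlation. A further list of pathway genes and cell type markers was not analysed here, because no reference used here pairs their symbols with the Ensembl identifiers. The tissue label was thus not checked with markers other than the members. Star, Scarb1 and Cyp21a1 were chosen with earlier results known, so their levels are no independent check of it. For sequences, all 4 symbols were found in the RefSeq gene table and 2 had a promoter entry.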

Additional observations from a re-analysis of the deposited data

Results flagged for a closer look

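In each of the 40 sets of 5 libraries (5 genes in 8 groups), the gap between the most extreme library and its nearest neighbour was set against the whole range of the set, with a limit of 0.71. Of these 40 sets, 2 had a library past it, and chance gives about 1 in 20. For ENSRNOG00000008074, male control replicate 2 had 6154 FPKM where the other 4 male controls had 5086 to 5249 FPKM, a gap of 0.848 of the range. For Por, male 1000x replicate 5 had 99.39 FPKM where the other 4 had 76.98 to 82.54 FPKM, a gap of 0.752 of the range; Por still differed between the sexes at 1000x without any single library, by 0.66 to 0.83 (log2).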

How the results depend on the processing

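No dose comparison gained a called member under any alternative, and Por stayed called at 1000x and over the mean of the 4 groups. In controls the female against male comparison went from 0 to 1 member called, Star, with quantile normalization, a filter on a mean of 5 FPKM or more, library totals, total recovered reads, library weights or voom, and from 0 to 1 over single libraries left out. Of all genes, 801 of 13926 were called there with quantile normalization, 821 of 14050 with library totals and 682 of 14004 with total recovered reads. At 30x the female against male comparison had 2 members called with quantile normalization, Cyp21a1 (-0.44) and Star (-0.62), where 522 of 13926 genes were called. With library totals it had 1, Star (-0.57), where 5178 of 14050 genes were called. At 30000x it had 2 with quantile normalization, Cyp21a1 (-0.42) and Por (0.54), where 1058 of 13926 genes were called. It had 0 with library totals, where 5831 of 14050 genes were called, and 0 with the compared groups alone. Over the mean of the 4 groups it had 3 with quantile normalization or library totals, 2 with total reads, and 1 to 2 over single libraries left out. Of all genes, 4306 of 13926, 8511 of 14050 and 5456 of 14004 were called under those 3 scales.

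Quantile normalization turned the pooled male value of Cyp21a1 (0.05) and Scarb1 (0.01), the female values of Star (-0.02) and Por (-0.05) at 30x and of Cyp21a1 at 30000x (-0.05), and the mean female minus male value of Cyp21a1 (-0.30) and ENSRNOG00000008074 (-0.05). Library totals turned male Scarb1 (0.02), female Por at 30x (-0.18), and female minus male Por at 30x (-0.12), Cyp21a1 (-0.32), ENSRNOG00000008074 (-0.14) and Scarb1 (-0.05). Library totals moved the median of all genes, and relative to it these female minus male values were 0.24, -0.06, 0.12 and 0.21, and female Por at 30x was 0.11. Total reads turned male Scarb1 (0.01), female Por at 30x (-0.08) and female minus male Cyp21a1 (-0.16), and library weights male Scarb1 (1.2e-03). In the pooled male comparison the median of all genes was 0.08 with library totals and 0.06 with total reads. These medians lay above the male Scarb1 values of 0.02 and 0.01. Leaving out single libraries moved Cyp21a1 female minus male between -0.03 and 0.04 and male Scarb1 between -0.18 and 0.05. The cause was not tested.

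Deviations of same-numbered libraries had r of -0.17 to 0.30, over 0.1 in 11 of 60 pairs, so the numbers were not taken to pair libraries. The replicate block left every count of members called as it was, with Por at 0.48 over the 4 groups (adjusted p 7.6e-06 by limma) and Star in controls at -0.80 (adjusted p 0.053 by limma). With 5 libraries a group, the female dose values carry 95% intervals from about 0 to nearly 2 log2 units for Scarb1, and read depth limits none of the 5 genes.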

Other observations

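The 5 genes together held 3.51 ± 0.423% of all reads in male controls (SD, n = 5) and 2.66 ± 0.661% in female controls. The dosed male groups had means of 3.16% to 3.43% and the dosed female groups means of 3.27% to 3.40%. As shares of reads these values use no size factor, and they were not tested.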
